A study of Mus musculus with 20 samples.

Results

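The collagen genes were followed in a fast muscle of the shin, the EDL (extensor digitorum longus), taken from both legs of 10 male C57Bl6 mice. A gene was a member if its name on the array read Col, a number, a and a number. By that rule 43 of the 27376 gene names were collagens, with 104 spots and 86 probes. A spot was used only if it lay inside the array (away from its right, top and bottom margins), since 1 group of arrays read low along the edge. Inside it, 40 collagens had a spot, and Col9a1, Col5a3 and Col4a5 had none. Of these 40, 32 passed the filter on dim probes, which asked for a signal well above background on at least 5 of 20 arrays. The other 8 were Col6a5, Col6a6, Col9a3, Col10a1, Col13a1, Col17a1, Col25a1 and Col28a1.

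At 8 weeks of age each mouse received recombinant adeno-associated virus serotype 6 (rAAV6) by intramuscular injection in both hindlimbs, 30 µL at 2.5e+10 vector genomes of each vector. The left leg got vector with no insert. The right leg got vectors for point-mutant HDAC4 and HDAC5 (dnHDAC4/5). HDAC4 and HDAC5 are class IIa histone deacetylases, which hold back target genes of the factors they bind. After 4 weeks the mouse received an intraperitoneal injection of Scriptaid, a small-molecule inhibitor of histone deacetylases, or of its vehicle (5% DMSO in PBS). Vehicle animals gave 5 arrays of left legs (EV) and 5 of right legs (HV). Scriptaid animals gave 5 of left legs (ES) and 5 of right legs (HS), making 4 groups. The titles of the ES samples name vehicle, while their description, treatment entry and animal identity give Scriptaid, and the latter were followed. Every leg carried viral vector, so no group was free of it. The vector was always in the right leg, so vector and side cannot be told apart. The Scriptaid dose and the interval to collection were not given in the labels used here. Each animal gave 1 array per leg, and the whole muscle was taken, so muscle fibres, fibroblasts, tendon ends, vessels and nerve shared each RNA sample.

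Collagens are trimers of chains built from a repeating Gly-X-Y unit, wound into a triple helix. In muscle, types I, III and V form the fibrils of the connective tissue sheaths and tendon, type VI forms beaded filaments next to the fibre, and type IV forms the sheet of the basement membrane. Fibroblasts and their progenitors make most of the fibrillar chains, and types II, IX, X and XI are collagens of cartilage.

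Every level below is the log2 processed signal of a gene's probe minus the log2 75th percentile of that array, so 0 is the signal of the 75th percentile. Levels of different probes are not on 1 scale and are compared only within a gene. The 75th percentile itself lay between 248.4 and 608.1 signal units. The share of spots well above background was 51.7% to 61.3%. Spots flagged as outliers numbered 657 to 1342 on the HS arrays and 375 to 685 on the arrays of the other groups. Fast fibre genes marked the tissue: the sarcomeric actin Acta1 averaged between 7.04 and 7.22 and the fast myosin Myh4 between 6.99 and 7.13 in the 4 groups. Each of the 5 slides held 1 array of every group, with the group fixed by its position on the slide, so position and group cannot be told apart. The 20 arrays came from 10 animals, with both legs of each. Unless a block is named, fits took the arrays as separate samples, so their p-values leave out the pairing of legs. The Scriptaid test on animal means measures the spread between animals.

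The repeat unit could be read directly in the probes. In 3 of 86 collagen probes (3.49%) the glycine codon GGN opened each Gly-X-Y unit over the whole length, and in 0 of 41088 other probes did it do so. These 3 are shown because they are the part of the data where the collagen fold is legible, with the glycine codons in capitals, read 5′ to 3′ from the scanner files. None was the chosen probe of its gene.
Col5a1 probe A_52_P237371: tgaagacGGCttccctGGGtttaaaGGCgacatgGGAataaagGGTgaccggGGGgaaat
Col5a3 probe A_52_P503796: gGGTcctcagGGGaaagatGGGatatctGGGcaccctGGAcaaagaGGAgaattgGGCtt
Col11a2 probe A_52_P563285: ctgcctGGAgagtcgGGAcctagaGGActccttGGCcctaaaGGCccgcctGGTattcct

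The 32 collagens varied more between arrays than genes in general. The difference between a member's highest and lowest array ranged from 0.80 to 6.99, with a median of 1.90, against a median of 1.24 over all genes tested. It exceeded 4 in 7 members and stayed under 2 in 18. On all 20 arrays, 20 members were well above background.

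**Figure D1:**
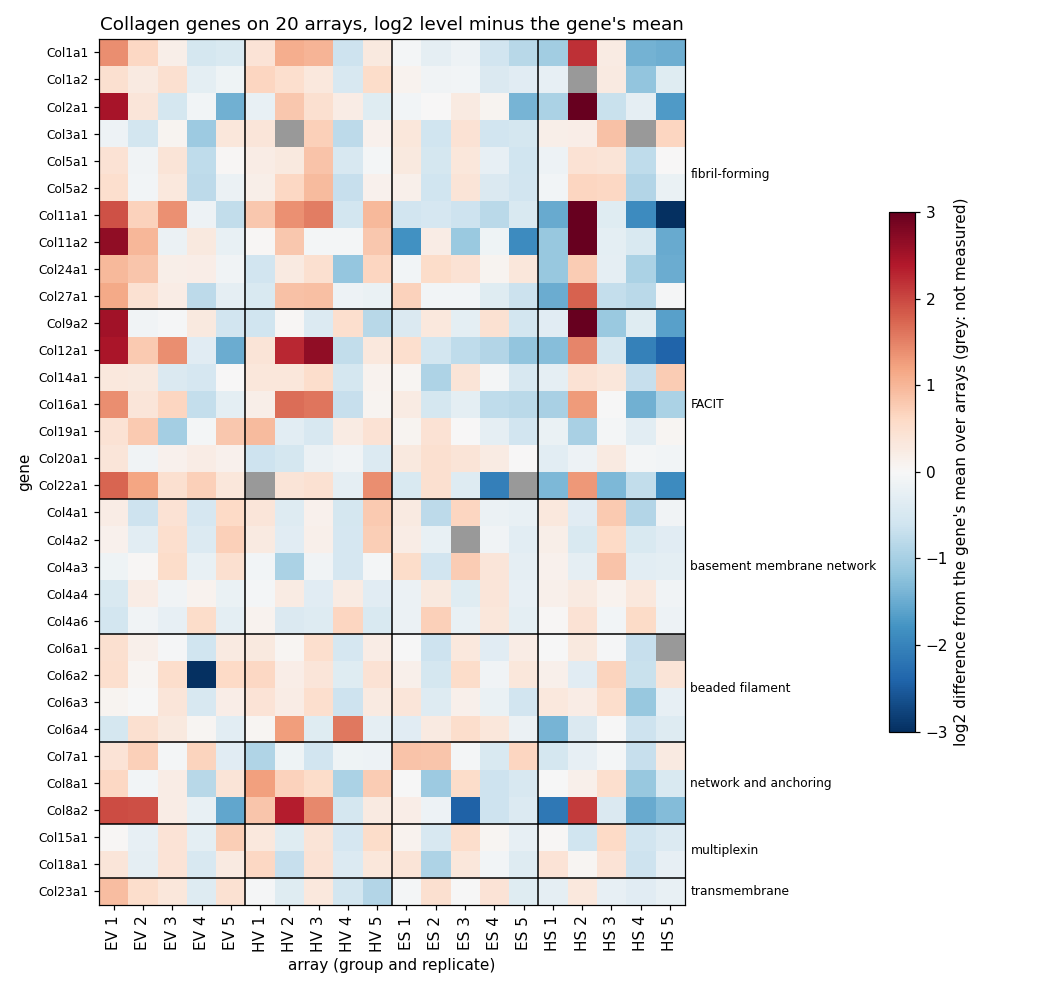
Heat map of the 32 collagen genes that passed the filter (rows, by class) on the 20 arrays (columns, by group), each as its log2 level minus the mean of that gene over arrays. EV 1 and HS 2 stand out in the cartilage collagens Col2a1, Col9a2, Col11a1 and Col11a2, and most classes vary by array more than by group.

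Among the fibril-forming chains, Col1a1 (the main chain of type I collagen, read by 9 spots of 1 probe) ranged from 3.35 on HS 5 to 7.01 on HS 2. Col1a2, its partner chain in the type I trimer, lay between 5.40 and 7.23. Its spot was saturated on 5 arrays (EV 1, EV 2, HV 2, HV 3 and HS 2), so its levels there are compressed. HS 2 was left out by its outlier flag, so the saturated values kept were all of vehicle animals. Col3a1, the chain of type III collagen, lay between 4.27 and 6.25. Col5a1 and Col5a2, chains of type V collagen that sit inside type I fibrils, lay between 0.21 and 1.82 and between 0.18 and 2.02. These 5 genes were well above background wherever a spot was kept. Over the 9 spots of Col1a1 the SD within an array had a median of 0.10, far below the spread between arrays, with a highest value of 1.32 on HS 5.

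Col4a1 and Col4a2, the 2 chains of the basement membrane sheet around fibres and capillaries, lay between 0.92 and 2.58 and between 2.58 and 3.82. Their starts on chromosome 8 lie 21 bases apart on opposite strands (RefSeq, GRCm38.p6). The type VI chains lay between 1.93 and 3.13 for Col6a1 and between 2.39 and 4.04 for Col6a3. Col6a2 lay between 0.85 and 2.18 on 19 arrays and at -2.04 on EV 4. Its second probe did not show that low value: it read -2.74 on EV 4 against an EV mean of -2.30. Col15a1 and Col18a1, proteoglycan-like collagens of basement membrane zones, ranged from -0.16 to 1.18 and from 0.14 to 1.69. Col14a1, a fibril-associated collagen of sheaths and tendon, ranged from -1.07 to 0.63. Col22a1, a fibril-associated collagen of the junction between muscle and tendon, ranged from 0.31 to 4.10 on the 18 arrays that measured it.

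EV 1 and HS 2 stood apart in the cartilage collagens. Col2a1, the fibril chain of cartilage, read 3.10 on EV 1 and 3.66 on HS 2, and at most 1.41 on the other 18 arrays. Its second probe was high on the same arrays, at 2.78 and 3.27. Both arrays were highest by both probes of the gene. Col9a2, which decorates type II fibrils, read 0.62 and 1.27 there and at most -1.40 elsewhere. Col11a2 read 1.38 and 1.73 and at most -0.27 elsewhere, and Col11a1 0.45 and 1.77 and at most 0.07. The same arrays carried the hypertrophic cartilage collagen Col10a1 and the type IX chain Col9a3, which failed the filter. Col10a1 was well above background on 2 arrays, EV 1 at -2.79 and HS 2 at -2.40, and Col9a3 on 3 arrays, with -1.28 on EV 1 and -0.68 on HS 2.

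Some bone markers were also high on these arrays. The summed linear level of the 4 that passed of 5 (Sox9, Runx2, Bglap and Ibsp) was 38.6 on EV 1 and 64.9 on HS 2, and between 0.21 and 11.7 on the other 18 arrays. Bglap, the osteoblast product osteocalcin, read 5.20 and 5.94 against at most 3.47 elsewhere and makes up most of that sum. Ibsp, a bone matrix protein, read 0.33 and 1.54 against at most 0.32, and Runx2, a transcription factor of osteoblasts, -2.62 and -2.01 against at most -2.87. Sox9, the transcription factor of cartilage cells, lay inside the range of the other arrays, at -1.70 and -1.33 against up to -0.75. The collagenase Mmp13 and the osteoclast protease Ctsk read 1.25 and 2.21, and 1.59 and 2.79. Their ranges on the other arrays are not given here. The summed level of genes that cut or take up collagen was 29.0 on EV 1 and 36.6 on HS 2. That lay inside the range of the other 18 arrays, 14.8 to 38.0. Myelin and nerve markers were highest on EV 1 and HS 2, with a summed level of 14.6 and 8.52 against at most 5.94 on the other arrays. Adipocyte markers were high on both (165 and 267) and also on other arrays, up to 238. The part these tissues play in the collagen levels was not tested.

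Collagens other than those of types II, IX, X and XI were high on EV 1 and HS 2 in part. HS 2 had the highest value of 6 of its 31 measured members and EV 1 of 3 of 32, where over all genes tested the shares were 8.89% and 4.09%. The 6 on HS 2 were Col2a1, Col9a2, Col11a1 and Col11a2, described above, with Col1a1 and Col27a1. Col1a1 was highest on these arrays, at 6.21 and 7.01 against at most 5.91. Against the median of the other 18 arrays, Col12a1 was higher by 2.99 and 2.01, Col8a2 by 2.26 and 2.40, and Col16a1 by 1.70 and 1.58. Col22a1 was higher by 1.70 and 1.26 and Col27a1 by 1.31 and 1.95. Col27a1 was well above background on 8 of 20 arrays, so its differences are limited by background. Col3a1 (5.23 and 5.57), Col4a1 (2.04 and 1.48) and Col6a3 (3.61 and 3.74) lay inside the range of the other arrays. Several comparisons below are therefore also given without these arrays.

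**Figure D2:**
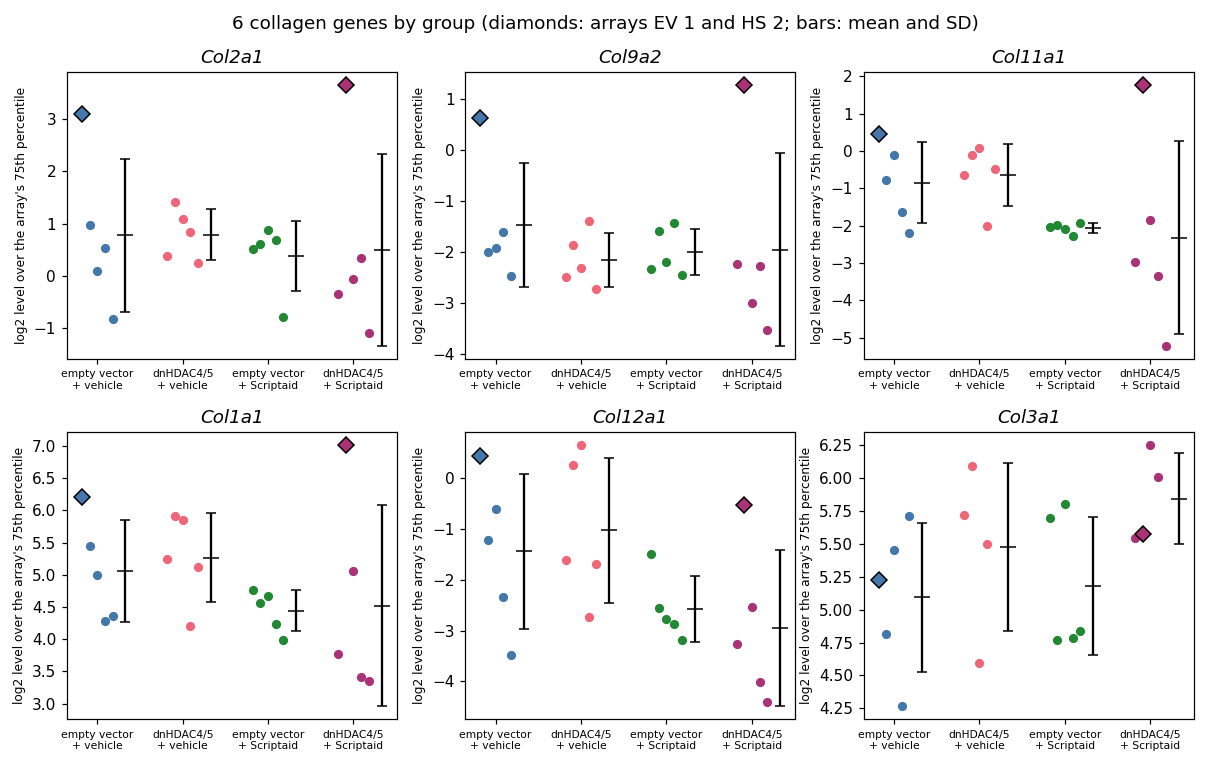
Levels (log2 signal minus the array 75th percentile) of Col2a1, Col9a2, Col11a1, Col1a1, Col12a1 and Col3a1 on each array, by group, with group means as bars; diamonds mark EV 1 and HS 2. In Col2a1 and Col9a2 the diamonds lie above every other array, and in Col3a1 they lie among them.

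The first question was whether dnHDAC4/5 altered collagen mRNA, within vehicle animals (HV minus EV), within Scriptaid animals (HS minus ES) and averaged over both. No collagen passed the threshold of limma (Benjamini-Hochberg adjusted p under 0.05 over all 14650 genes) in any of the 3. In vehicle animals 0 of 32 members were called, where 0% of all genes were, and 3 of 32 had an unadjusted p under 0.05, where 4.85% of all genes did. In Scriptaid animals 0 of 32 were called (0.0205% of all genes) and 3 had an unadjusted p under 0.05 (8.92% of all genes). In the average 0 of 32 were called, where 0.232% of all genes (34) were, and 5 had an unadjusted p under 0.05, 4 lower and 1 higher, where 10.6% of all genes did. The members' median difference in the average was 0.02, the same as the 0.02 over all genes, and 14 of 32 (43.8%) were lower, against 45.9% of all genes. These counts moved with EV 1 and HS 2. Without HS 2, 20 of 32 were lower in the average (median -0.06), against 45.5% of all genes. Without EV 1 it was 11 of 32 (median 0.07), against 47.5%, and without both arrays 16 (median -0.01). In HS minus ES 15 of 32 were lower (median 0.01), and 20 without HS 2 (median -0.12).

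Col20a1, a fibril-associated collagen with short helices, came closest. It read -1.05, -1.52, -1.29, -1.20 and -1.29 on EV 1 to EV 5 and -2.05, -1.96, -1.59, -1.52 and -1.83 on HV 1 to HV 5. With Scriptaid it read -1.13, -0.93, -1.03, -1.17 and -1.41 in the empty-vector legs and -1.74, -1.58, -1.15, -1.47 and -1.501 in the dnHDAC4/5 legs. All HV arrays lay below all EV arrays, the lowest EV value touching the highest HV value to 2 decimals, while the ES and HS arrays overlapped. It was the 1 member of 32 whose EV and HV arrays did not overlap, where 0.648% of all genes did not.

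Averaged over both injections, Col20a1 was lower in the dnHDAC4/5 leg by a log2 difference of -0.44 (SE 0.09, 95% interval -0.64 to -0.24), with a limma p of 0.000197 and an adjusted p of 0.0547. The right leg was lower than the left in 10 of 10 animals. Of the 12815 genes measured in 10 pairs, 1.08% were lower in the right leg in all 10. The adjusted p sat at the threshold: it was 0.0605 with the animal as a block, 0.0415 with the slide as a block, and between 0.0267 and 0.118 when 1 array was left out. It passed without HV 3 (0.046), without HV 5 (0.0392) and without HS 3 (0.0267). Col20a1 was read by 1 spot of 1 probe, so no second probe bears on it.

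Col7a1 encodes the anchoring fibril collagen. It read 2.67, 2.96, 2.195, 2.91 and 1.92 in EV and 1.36, 2.12, 1.67, 2.11 and 2.10 in HV. In Scriptaid animals it read 3.10, 3.08, 2.18, 1.80 and 2.89 in ES and 1.72, 2.00, 2.18, 1.57 and 2.52 in HS. Both pairs of groups overlapped, and the right leg was lower in 9 of 10 animals. The averaged difference was -0.63 (SE 0.19, limma adjusted p 0.165).

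Col23a1, a transmembrane collagen, averaged -3.27 ± 0.48 (SD, n = 5) in EV, -3.93 in HV, -3.55 in ES and -3.78 in HS. The right leg was lower in 9 of 10 animals, with an averaged difference of -0.45 (SE 0.17, limma adjusted p 0.315). Col24a1, a minor fibril-forming chain, had a difference of -0.68 (SE 0.27, limma adjusted p 0.351) and was lower in 7 of 10 right legs. Col3a1 went the other way, at 0.53 (SE 0.24, limma adjusted p 0.44), higher in 6 of the 8 animals with both legs measured. Over those 8 animals the mean difference between legs was 0.44. Other probes gave the same sign and smaller differences, of -0.16 for Col23a1, -0.13 for Col24a1, and 0.20 and 0.32 for Col3a1. These 5 genes do not belong to 1 class of collagen.

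**Figure D3:**
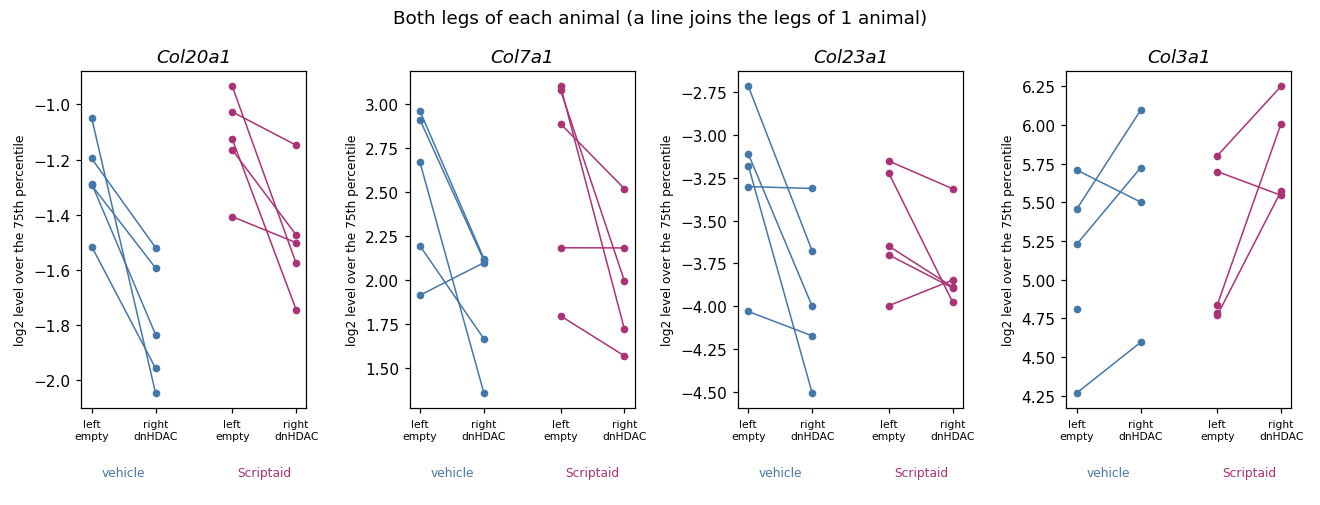
Levels (log2 signal minus the array 75th percentile) of Col20a1, Col7a1, Col23a1 and Col3a1 in the left (empty vector) and right (dnHDAC4/5) leg of each animal, a line joining the legs of 1 animal; a dot with no line had its other leg not measured. Every Col20a1 line slopes down, 9 of 10 do for Col7a1 and Col23a1, and 6 of 8 Col3a1 lines slope up.

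The abundant collagens of the muscle matrix gave small vector differences with intervals on both sides of 0. Col1a1 differed by 0.14 (95% interval -0.70 to 0.98), Col1a2 by -0.02 (-0.41 to 0.36) and Col4a1 by 0.02 (-0.48 to 0.53). Col6a1 differed by 0.02 (-0.35 to 0.39) and Col6a3 by 0.10 (-0.32 to 0.52). These intervals leave room for a difference of at least 0.35 on the log2 scale either way in Col6a1. Col6a2 showed 0.62 in vehicle animals, which turned to -0.18 without EV 4, the array with the low spot. By class, the vector average was higher for 6 and lower for 4 of the 10 fibril-forming chains (median 0.10), higher for 3 and lower for 2 of the basement membrane chains (median 0.02), and higher for 3 and lower for 4 of the FACIT, the fibril-associated collagens with interrupted helices (median -0.13).

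Upstream sequence was available for 25 of the 32 members in RefSeq (GRCm38.p6). The windows of Col7a1, Col24a1 and Col3a1 are shown because they end at the gene's annotated start, for 3 of the 5 members with the smallest vector p-values, and no other gene overlaps them. Each is the 250 bases before the start. Capitals mark 3 short motifs searched on both strands: the CCAAT box, the TATA box read as TATAAA, and the GC box read as GGGCGG. Col7a1 held CCAAT on the reverse strand and GGGCGG, Col3a1 held TATAAA, and Col24a1 held none.
Col7a1 chr9:108953336-108953585 (+): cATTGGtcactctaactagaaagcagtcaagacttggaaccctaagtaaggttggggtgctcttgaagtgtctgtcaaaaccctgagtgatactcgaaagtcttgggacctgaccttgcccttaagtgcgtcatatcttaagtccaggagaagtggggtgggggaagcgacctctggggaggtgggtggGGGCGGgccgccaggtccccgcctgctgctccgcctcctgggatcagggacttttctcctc
Col24a1 chr3:145292222-145292471 (+): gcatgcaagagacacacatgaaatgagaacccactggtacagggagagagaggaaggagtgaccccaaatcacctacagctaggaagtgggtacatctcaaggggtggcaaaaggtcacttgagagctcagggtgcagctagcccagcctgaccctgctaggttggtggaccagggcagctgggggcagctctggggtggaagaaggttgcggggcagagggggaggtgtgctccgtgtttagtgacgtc
Col3a1 chr1:45311288-45311537 (+): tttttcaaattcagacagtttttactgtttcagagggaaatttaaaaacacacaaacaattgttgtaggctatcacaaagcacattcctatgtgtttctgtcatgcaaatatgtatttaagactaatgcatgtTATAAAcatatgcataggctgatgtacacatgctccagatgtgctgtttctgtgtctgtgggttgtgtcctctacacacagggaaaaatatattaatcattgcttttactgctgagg
Over the 27 windows of the members, GGGCGG was found in 63% and over all 32851 windows in 32.7%. CCAAT was found in 29.6% against 33.8% and TATAAA in 7.41% against 12.4%. A match is a description of these letters only.

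The second question was whether Scriptaid altered collagen mRNA. The drug was given to the whole animal, so the mean of both legs was compared over 5 Scriptaid and 5 vehicle animals. Most collagens read lower with Scriptaid, and none passed the test. Of 32 members 25 were lower (78.1%), with a median of -0.21, where 43.1% of the 14553 genes tested were lower, with a median of 0.03. Limma called 0 of 32 members and 0% of all genes, and 4 members had an unadjusted p under 0.05, all lower, where 5.33% of all genes did. In bulk muscle, fewer cells of a type and less RNA per cell cannot be told apart.

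Col12a1, a fibril-associated collagen of tendon and sheath, had the smallest p. It read 0.44, -1.21, -0.61, -2.34 and -3.48 in EV and -1.62, 0.26, 0.65, -2.73 and -1.69 in HV. With Scriptaid it read -1.49, -2.55, -2.77, -2.88 and -3.19 in ES and -3.27, -0.53, -2.53, -4.02 and -4.41 in HS. Vehicle and Scriptaid arrays overlapped in both legs, and the vehicle animals spread widely. The animal-mean difference was -1.53 (SE 0.59, 95% interval -2.84 to -0.22, limma p 0.026, adjusted p 0.903). Compared within slides, the Scriptaid animal was lower than the vehicle animal on 5 of 5 slides, by -0.91 to -2.67. With the slide as a block the unadjusted p was 0.00104 and the adjusted p 0.44.

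Col22a1, of the junction between muscle and tendon, differed by -1.16 (SE 0.44, limma adjusted p 0.911). It was lower on 2 of the 3 slides with every leg measured. Col11a1, a regulator of fibril width, differed by -1.45 (SE 0.60, limma adjusted p 0.917) and was lower on 4 of 5 slides. Col8a2, a short-chain network collagen, differed by -1.34 (SE 0.59, limma adjusted p 0.927) and was lower on 5 of 5. The fibril-associated Col16a1 was lower on 5 of 5 slides too, at -0.85 (SE 0.39, limma adjusted p 0.932), and Col1a2 on 4 of 4, at -0.51 (SE 0.23, limma adjusted p 0.932). In all, 4 members were lower on every slide measured and 2 (Col20a1 and Col4a4) were higher on every slide, where 3.92% and 9.02% of all genes were. With the slide as a block 7 of 32 members had an unadjusted p under 0.05, where 8.58% of all genes did, and none was called.

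Directions were counted by class. Of the 10 fibril-forming chains 9 were lower (median -0.35), Col3a1 being the exception at 0.24 (95% interval -0.46 to 0.94). That value left out the vehicle animal of HV 2 and the Scriptaid animal of HS 4. Slide 4, which lost its Scriptaid animal, had the lowest mean of Col3a1 (4.55 against 5.05 to 5.90). On slides 1, 3 and 5, with both animals measured, the differences were 0.15, 0.25 and -0.18. The other 2 probes of Col3a1 gave -0.59 and -0.14. Of the 7 FACIT members 6 were lower (median -0.36), with Col20a1 at 0.22. Of the 4 beaded filament chains 3 were lower (median -0.21), with Col6a2 at 0.12. The second probe of Col6a2 gave -0.12, and without the animal of EV 4 its difference was -0.35. The 5 basement membrane chains split, with 3 higher and 2 lower (median 0.13), and Col4a1 at -0.10 (95% interval -0.77 to 0.57). Col1a1 itself differed by -0.68 (95% interval -1.61 to 0.25, limma adjusted p 0.932). Whether classes differed from each other was not tested.

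**Figure D4:**
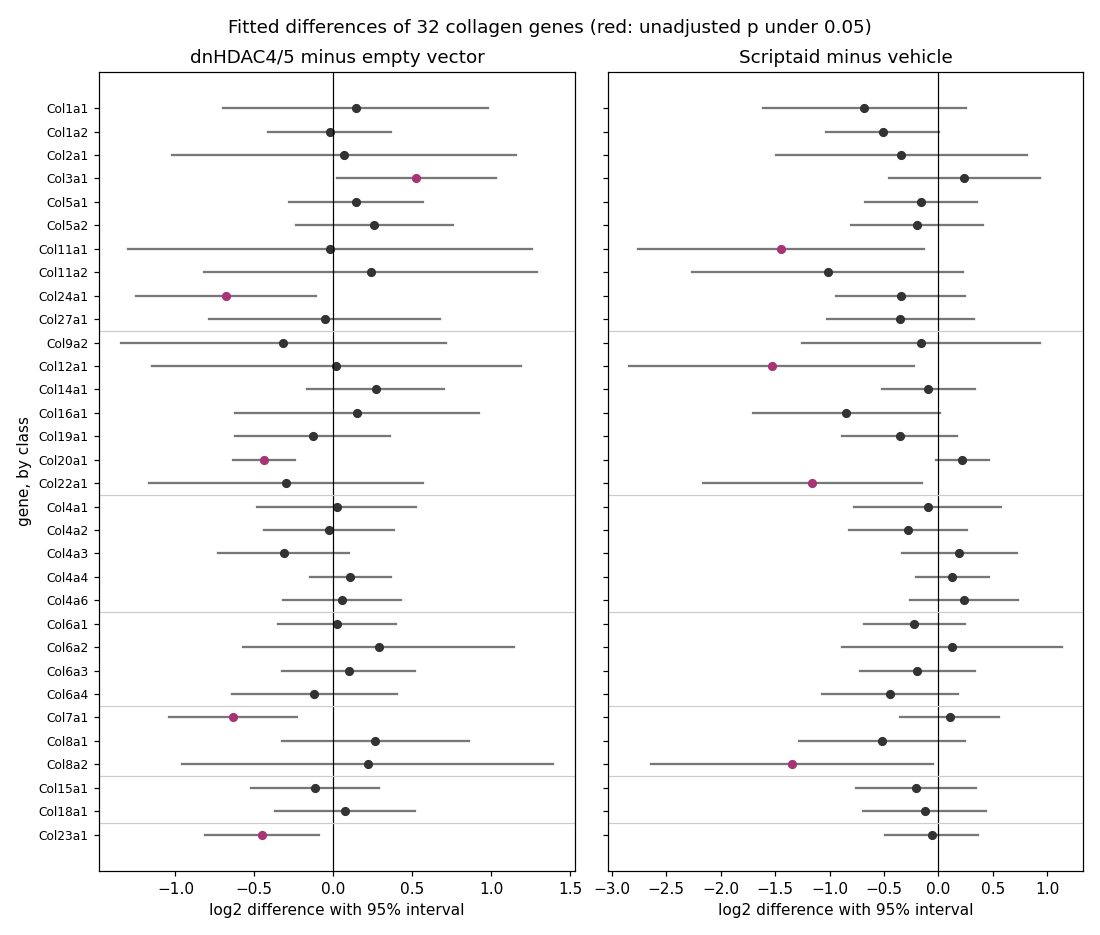
Log2 differences of the 32 collagens for dnHDAC4/5 (averaged over both injections) and for Scriptaid (animal mean), with 95% intervals from limma; red marks an unadjusted p under 0.05. Vector differences scatter around 0 with Col20a1 and Col7a1 below it, while 25 of 32 Scriptaid differences lie below 0 with wide intervals.

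Single animals weighed on the Scriptaid counts. The share of all genes at an unadjusted p under 0.05 moved too and is given in brackets. Leaving out the animal of EV 1 left 1 member at an unadjusted p under 0.05 (4.02%), and leaving out the animal of HS 2 gave 9 (7.93%). The count was 0 without the animal of EV 2 (4.45%) or of ES 4 (5.14%) and 10 without the animal of EV 4 (6.77%). It was 1 without the animal of ES 1 (3.55%) or of ES 5 (4.21%), and 2 without that of EV 3 (5.94%). Without the animals of EV 1 and HS 2 together it was 6 (6.31%), and 23 of 32 members were lower. Without the animal of HS 2 the difference of Col11a1 was -1.97, that of Col1a1 -1.01 and that of Col22a1 -1.64 (limma p 6.35e-05, adjusted p 0.299). The Col22a1 fit also lacked the animals of HV 1 and ES 5, where it was not measured, so it rested on few animals. Limma called no member in any of these fits with animals left out.

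Each leg was also tested alone. In empty-vector legs (ES minus EV) 24 of 32 members were lower (median -0.18; 46.1% of all genes lower). Limma called 0 members and 0% of genes there, and 2 members had an unadjusted p under 0.05 against 4.07% of all genes. Without EV 1 that count was 0 (3.44% of all genes) and the median -0.05. The count was 1 to 4 without any other array, against 3% to 5.64% of all genes. In dnHDAC4/5 legs (HS minus HV) 24 of 32 were lower (median -0.22; 41.7% of all genes lower). Limma called 0 members there, where it called 0.00683% of genes, and 5 members had an unadjusted p under 0.05 against 7.67%. Without HS 2 that last count was 12, and the share of all genes rose to 13.2%. The smallest limma adjusted p there was 0.0667, for Col11a1 at a difference of -2.71. Without HS 4 the count was 1 (7.18% of all genes), with 18 members lower and a median of -0.05. It was 2 without HV 2 (6.08%) or HS 5 (6.52%), and 3 without HV 3 (7.82%), HV 5 (6.68%) or HS 3 (8.29%). Without HV 4 it was 10 (8.61%). The legs of an animal share the drug, so they are not independent evidence.

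Col6a4, a chain of the type VI family, was limited by background. It was well above background on 4 of 5 HV and 4 of 5 ES arrays, 1 EV array and no HS array. Each HS array was set no lower than the lowest signal well above background on it. By group means HV was then 1.60-fold and ES 1.27-fold above HS. These ratios are not lower bounds, since the HV and ES means include arrays at background. The groups overlapped, with HV down to -4.59, ES down to -4.56 and HS up to -4.24. The measured means were -4.79 in HS, -3.77 in HV and -4.10 in ES. Limma gave an adjusted p of 0.441 for HS against HV. Col6a5, a related chain that failed the filter, was well above background on 2 arrays, ES 5 at -3.16 and HS 5 at -2.10, which are the left and right leg of 1 animal. On the other 18 arrays it read -5.46 or lower.

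Whether the vector difference depended on Scriptaid was asked by the interaction term. Limma called 0 of 32 members and 0% of genes, and 1 member, Col6a4, had an unadjusted p under 0.05 (-1.15, SE 0.50, adjusted p 1), where 2.16% of all genes did. The members' median interaction was -0.04 (all genes 0.03), and 18 of 32 were below 0. For Col6a4 the sign turned, to 0.39, when the background was corrected by normexp.

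Levels also differed between slides. With the groups in the model, an F test of slide in limma called 11 of 32 members at an adjusted p under 0.05, where 9.6% of all genes were called. It took the 20 arrays as separate samples, both legs of an animal included, while the Scriptaid test used animal means. Its count is therefore not set against the Scriptaid count. The 11 were Col1a2, Col3a1, Col4a1, Col4a4, Col4a6, Col5a1, Col5a2, Col6a3, Col8a1, Col15a1 and Col18a1. Slide means of Col4a1 were 2.10, 1.28, 2.30, 1.28 and 2.06 on slides 1 to 5, so slides 2 and 4 were low. Those of the chosen probe of the basement membrane chain Col4a4, a genomic neighbour of Col4a3, ran the opposite way, at 0.04, 0.43, -0.00, 0.43 and -0.05. The second probe of Col4a4 was not high on slide 4. It read -2.50, -2.37, -2.29 and -2.63 there (EV, HV, ES and HS), and -2.27, -2.03, -1.98 and -1.98 on slide 3. Slide 4 had the lowest mean of Col5a2 (0.36 against 0.86 to 1.63) and of Col6a3 (2.91 against 3.43 to 3.91). Each slide held 2 animals, 1 per treatment, so a slide and its pair of animals cannot be told apart.

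**Figure D5:**
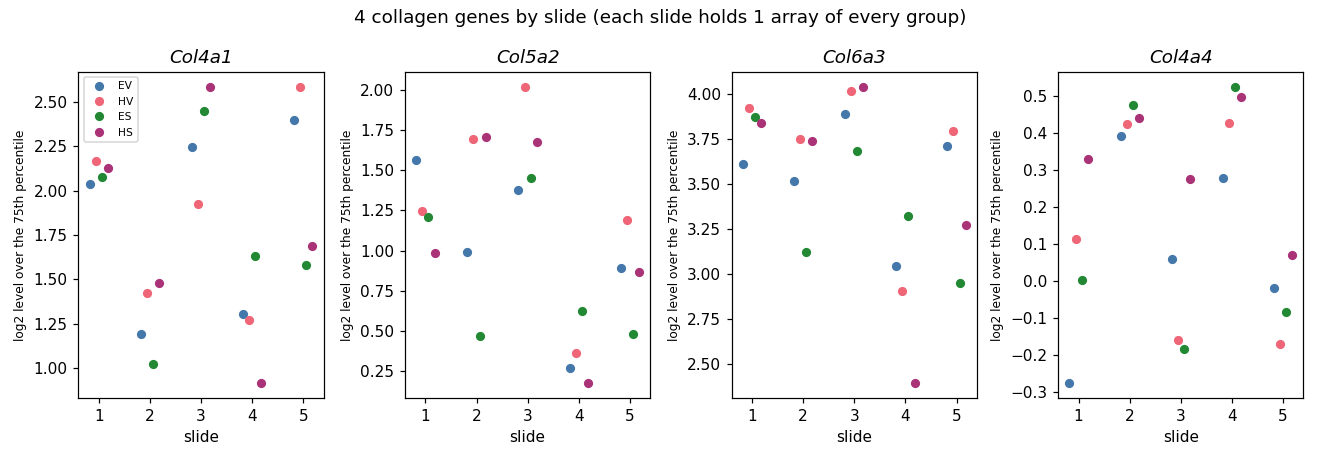
Levels (log2 signal minus the array 75th percentile) of Col4a1, Col5a2, Col6a3 and Col4a4 on each array, by slide, with points coloured by group. By slide mean, Col4a1 is low on slides 2 and 4, Col5a2 and Col6a3 are low on slide 4, and Col4a4 is high on slides 2 and 4 by the probe shown. Arrays of 1 slide also spread, as in Col6a3 on slide 4, from 2.39 on HS 4 to 3.32 on ES 4.

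Differences between the legs of 1 animal were compared for 6 pairs of collagens. Col1a1 and Col1a2, which form 1 trimer, had r = 0.58 and rho = 0.53 over 9 animals (permutation test, 100000 resamples, p = 0.103 and 0.148, adjusted p over 6 pairs 0.309 and 0.356). Without the 2 animals farthest from the median, r was 0.71. Col4a1 and Col4a2 had r = 0.60 and rho = 0.58 over 9 animals (permutation p = 0.0827 and 0.108, adjusted 0.309 and 0.356), which turned to -0.46 without the 2 farthest animals, so it rested on them. Within treatments it was 0.88 in vehicle and 0.51 in Scriptaid animals. The other 4 pairs had r between 0.07 and 0.46 (adjusted p 0.354 to 0.847), and r between Col1a1 and Col3a1 went from 0.17 to -0.51 without the 2 farthest. No pair passed.

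Genes that build collagen showed no called change either. The synthesis list, of prolyl and lysyl hydroxylases, chaperones, propeptide proteases and crosslinking enzymes, had 21 genes tested. For the vector 14 were higher and 7 lower (median 0.13), none called, with the prolyl hydroxylase subunits P4ha1 at 0.32 (SE 0.11, limma adjusted p 0.236) and P4hb at 0.28 (SE 0.10, limma adjusted p 0.302). For Scriptaid 6 were higher and 15 lower (median -0.22), none called, with the collagen chaperone Fkbp10 at -0.51 (SE 0.25) and the prolyl hydroxylation cofactor Crtap at -0.32 (SE 0.16), both at limma adjusted p 0.932.

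Genes that cut or take up collagen were tested for 12 members. The vector gave 10 higher and 2 lower (median 0.15) and Scriptaid 4 higher and 8 lower (median -0.27), none called. Mrc2, the collagen uptake receptor, differed by -0.59 with Scriptaid (SE 0.20, limma adjusted p 0.848) and the protease inhibitor Timp4 by 0.57 (SE 0.22, limma adjusted p 0.911). Of 6 collagen receptors 5 were higher with the vector and 5 lower with Scriptaid, none called, with the integrin chain Itga1 at -0.56 with Scriptaid (SE 0.19, limma adjusted p 0.866) and the receptor kinase Ddr1 at 0.43 with the vector (SE 0.20, limma adjusted p 0.456).

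Partners of collagen in the matrix were tested as well. Of 16 fibril partners, small proteoglycans and fibril-bound proteins, 14 were lower with Scriptaid (median -0.39), none called. Fmod, a proteoglycan of tendon fibrils, differed by -1.44 (SE 0.54, limma adjusted p 0.888). For the vector 12 of 16 were higher (median 0.17), none called. Of 9 basement membrane partners 9 were lower with Scriptaid (median -0.19) and 7 with the vector (median -0.12), none called, with the laminin receptor Dag1 at -0.23 with the vector (SE 0.09, limma adjusted p 0.333). Of 14 genes of TGF-beta signalling, a main inducer of collagen genes, 13 were higher with the vector (median 0.17), none called, with the ligand Tgfb3 at 0.38 (SE 0.10, limma adjusted p 0.0977), and 6 were higher with Scriptaid (median -0.02).

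Markers of collagen-making cells gave 1 called gene. Scx, a transcription factor of tendon cells, rose with the vector by 1.34 (SE 0.25, limma adjusted p 0.0248). Over 33 settings, the main one included, its adjusted p was 0.0092 to 0.0688, and it was called in 20. It was not called without the filter on dim probes (0.0564), nor when 1 array was left out from EV 2 to EV 5, from the HS arrays 4 and 5, from the ES arrays 1, 2 and 5, or from the HV arrays 1, 2 and 4. The other 6 tenocyte markers were not called, 3 being higher and 3 lower. With Scriptaid 7 of 7 tenocyte markers were lower (median -1.13), none called, with Tnmd at -1.30 (SE 0.38, limma adjusted p 0.835). The summed tenocyte level was 10.4 to 45.7 in EV, 24.8 to 57.5 in HV, 6.19 to 16.2 in ES and 11.5 to 47.6 in HS. The part of tendon tissue in the lower collagen levels with Scriptaid was not tested. Fibroblast markers were higher for 9 of 10 with the vector (median 0.09) and lower for 6 of 9 with Scriptaid (median -0.06), none called.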

How the data were processed

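Arrays were 1-colour (Cy3) Agilent arrays, 100 ng of RNA each, 1 per leg. Per the file headers they were read with Agilent Feature Extraction 9.5.1.1. The deposited processed intensity is background-subtracted and detrended within the array by that software, with no scaling between arrays. The deposited value table holds linear ratios, which equal the processed intensity divided by 1 constant per array within rounding; its scale is linear, how the constant was set is not stated, and its column medians were 0.27 to 0.33. The deposited 0 or 1 flags, per the file headers, mark outlier, saturated and well-above-background spots.

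From these, control spots, edge spots and outlier spots were left out, spots of a probe were averaged, log2 intensities were set against each array's 75th percentile, and the probe of highest mean per gene was kept if well above background on at least 5 arrays with at least 3 arrays left per group. Outlier flags left Col22a1 without HV 1 and ES 5, Col3a1 without HV 2 and HS 4, Col4a2 without ES 3, Col1a2 without HS 2 and Col6a1 without HS 5; their fits drop those arrays, and nothing was imputed. Limma 3.58.1 in R 4.3.3 fitted the 4 group means over 14650 genes (animal means for Scriptaid), with Benjamini-Hochberg adjustment and a threshold of 0.05. The script was tested on simulated data. Gene names are those of the array; all 32 members tested were found in the RefSeq table.

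Legs were paired by animal identity in the labels. Deviations of the legs of 1 animal from their group means correlated at 0.02 to 0.43 (median 0.29), and those of the other animal on the slide at -0.17 to 0.41 (median 0.17). The fit without the block is reported, and blocked values stand beside results they move. Named genes were 15 matrix collagens listed with the design, the 3 of smallest p in each comparison, any called, and the 2 of smallest p per other list; cartilage collagens, Col10a1, Col9a3, Col6a5, Col16a1, Col4a4 and the bone markers were named after their values were seen. The members, lists and rules were chosen with earlier results of these data known. Alternatives were other scalings, background corrections, filters, probe rules, blocks, the deposited table and each array left out; leaving out EV 1 and HS 2 together and the test of slide were added after seeing the data.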

Additional observations from a re-analysis of the deposited data

Results flagged for a closer look

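In 92 groups (23 named collagens in 4 groups, each with 4 or 5 arrays measured), 4 had 1 array with a gap to its nearest neighbour above Dixon's 95% critical value for that number of arrays (0.71 of the range for 5), and chance alone gives about 1 in 20. Col11a2 read 1.73 on HS 2, with the next HS array at -1.56. Col23a1 read -3.315 on HS 2, with the next at -3.85. Col6a2 read -2.04 on EV 4, with the next EV array at 1.58. Col6a3 read 2.905 on HV 4, with the next HV array at 3.75.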

How the results depend on the processing

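The number of genes called moved with the processing, while 0 or 1 collagen was called. Genes called were a small share of all genes, 0.232% in the main vector average. The low count of collagens therefore does not set them apart from other genes. The causes were not tested. With the edge spots kept, genes called were 195 for HS minus ES (main 3), 202 for HS minus HV (main 1), 172 for the vector average (main 34), 31 for the Scriptaid animal mean (main 0) and 28 for the interaction (main 0). All of these comparisons use the HS arrays. Quantile normalization gave 7, 0 and 91 for the first 3 of these, normexp 0, 0 and 5, with 1 each for ES minus EV and the animal mean. Median scaling gave 0 for HS minus HV and 21 for the vector average. No filter on dim probes gave 1 for HV minus EV, 0 for HS minus ES, 1 for ES minus EV, 0 for HS minus HV and 11 for the vector average. Requiring 15 arrays gave 0 for HS minus ES. The mean of all probes gave 0 for HS minus ES and 3 for HS minus HV, and the deposited values gave 0 for HS minus HV. Without EV 1 and HS 2 together the counts were 5 for HS minus ES, 1 for ES minus EV and 28 for HS minus HV. With the replicate block, which pairs the legs of an animal, the counts were 66 for the vector average and 1 for HS minus ES; with the replicate number (the slide) as a block, 133 for the vector average and 18 for HS minus HV. The block changed the call of no collagen except Col20a1. Leaving out 1 array gave 0 to 3 genes called for HV minus EV, 0 to 6 for HS minus ES, 0 to 1 for ES minus EV, 0 to 31 for HS minus HV, 11 to 215 for the vector average, 0 for the animal mean and 0 to 1 for the interaction.

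For collagens, 1 was called (Col20a1, vector average) with edge spots kept, with 15 arrays required and with the slide as a block, and 0 to 1 when 1 array was left out; the other comparisons called none under any alternative. The median difference of the collagens moved by less than 0.41 under every alternative, the SD of array medians within groups. That SD exceeds every main median difference, so even a change of sign falls under it. With 1 array left out the sign turned in HV minus EV, HS minus ES, the vector average and the interaction. Left-out arrays moved the median difference between -0.07 and 0.15 for HV minus EV, -0.12 and 0.13 for HS minus ES, -0.34 and -0.05 for ES minus EV, -0.40 and -0.05 for HS minus HV, -0.07 and 0.11 for the vector average, -0.36 and -0.14 for the animal mean, and -0.19 and 0.15 for the interaction. Of the 3 collagens with the smallest p in each comparison, Col6a4 reversed in the interaction (0.39 with normexp), and Col20a1 also passed without HV 3, HV 5 or HS 3. Outside these, Col6a2 turned to -0.18 in HV minus EV and to -0.35 in the animal mean without EV 4 or its animal. Normexp moved the median of all genes to 0.10 for HS minus ES and 0.15 for the interaction. The correlations turned to -0.51 (Col1a1 with Col3a1) and -0.46 (Col4a1 with Col4a2) without the 2 farthest animals, and without the animal of EV 1 they lay between 0.09 and 0.72. Where a collagen had more than 1 probe (13 members), the probes gave the same sign for 10 in the vector average (not Col2a1, Col4a4 and Col1a2) and for 10 in the Scriptaid animal mean (not Col3a1, Col6a2 and Col4a4). Dim spots limit Col6a4 and Col27a1, and saturated spots limit Col1a2.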
